A study of Homo sapiens with 6 samples.

Results

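The genes examined here encode the core families of pre-mRNA splicing factors, and were taken from the count table by symbol: SRSF followed by a number, HNRNP, SF3A or SF3B followed by a number, and SNRP followed by a letter from A to G or a number. Of the 26334 gene rows of the table, 64 matched these patterns. After 5 pseudogenes and 1 antisense gene were left out, 58 remained, of which 12 were SRSF, 26 HNRNP, 9 SF3 and 11 SNRP genes. RNA-seq had been run on MCF10DCIS.com, a human breast cancer cell line of the MCF10 lineage that forms lesions resembling ductal carcinoma in situ in mice. All cells carried a pRSI lentiviral vector in which a U6 promoter drives the short hairpin RNA and a UbiC promoter drives TagRFP and puromycin resistance, and all were selected with 3 µg/ml puromycin. The hairpin targeted luciferase, a neutral control, in shLuc, and WDR5 in shWDR5. Each group had 3 libraries from a bulk, selected population. The question was how far silencing of WDR5, a scaffold subunit of the complexes that methylate histone H3 on lysine 4, moved each family.

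Splicing removes introns from pre-mRNA in the spliceosome, which is built from small nuclear ribonucleoproteins (snRNPs). Each major snRNP except U6 carries a ring of Sm proteins around its RNA, made by the SNRPB, SNRPD, SNRPE, SNRPF and SNRPG genes, and further SNRP genes encode proteins found in U1 or U2 alone. SF3A and SF3B are the protein complexes that let the U2 snRNP hold the branch point. SR proteins (SRSF) and heterogeneous nuclear ribonucleoproteins (HNRNP) bind the transcript itself and steer the choice of splice sites, SR proteins mostly as enhancers and hnRNPs often as repressors. Many SR protein and hnRNP genes also tune their own mRNA through poison exons, which gene-level counts do not resolve.

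WDR5 itself, which checks the labels, was measured at 52.6, 48.5 and 51.3 CPM (read counts scaled by TMM to a common library size) in the shLuc libraries and at 23.4, 24.4 and 20.8 in the shWDR5 libraries, a fall of 1.15 ± 0.07 (SE) on the log2 scale (edgeR quasi-likelihood test, FDR = 8.67e-07). Libraries held 38218108 to 57640167 reads in genes, and 16117 genes passed the filter on low counts. With a false discovery rate (FDR, the Benjamini-Hochberg adjusted p-value over all genes tested) under 0.05 as the threshold, 29.9% of these genes were lower in shWDR5 and 26.6% were higher. The 5 basal epithelial markers summed to 3236 to 3513 CPM in shLuc and 5775 to 6589 CPM in shWDR5, with KRT5, KRT14, KRT17 and TP63 higher and EGFR lower. Summed over their lists, markers of other cell types were far lower than the basal ones, but not all were near 0. The leukocyte genes PTPRC and CD3E and the fibroblast genes COL1A2 and COL3A1 stayed at or under 0.103 CPM on average. CD14 fell from 1.63 to 0.793 CPM, and COL1A1 and FOXA1 averaged 22.1 and 28.8 CPM in shLuc. The fibroblast list, mostly COL1A1, which fell by 0.50 on the log2 scale, summed to 21.6 to 23.7 CPM in shLuc and 14.8 to 17.8 CPM in shWDR5. The luminal list (ESR1, PGR, FOXA1), mostly FOXA1, which fell by 0.41, summed to 29.9 to 34.0 CPM in shLuc and 21.6 to 27.2 CPM in shWDR5, with PGR near 0. All 6 proliferation markers examined, MKI67, TOP2A, CCNB1, CDK1, MCM2 and PCNA, fell, and their summed level was 1404 to 1446 CPM in shLuc against 767 to 789 CPM in shWDR5. The part of these shifts in the results given here was not tested. In bulk RNA, a change per cell and a change in the makeup of the population cannot be told apart.

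More splicing factor genes were called lower than higher. Of 53 members that passed the filter, 25 were lower in shWDR5 (47.2%, against 29.9% of all genes tested), 5 were higher (9.43%, against 26.6%) and 23 were not called. The share called in either direction, 56.6%, was near the 56.5% of all genes, and no test of the members as a set was made. The median log2 fold change was -0.15 over the members and -0.01 over all genes tested. Shifts were small. Only SNRPB, SF3B3 and SNRPA fell and only SRSF8 rose by at least 0.6 on the log2 scale, the size the study used as its own threshold, together 7.55% of the members against 22.9% of all genes (12.0% lower, 10.9% higher). SNRPA lay just inside this limit at -0.60 and SNRPB2 just outside at -0.56. In 26 members every shWDR5 library lay below every shLuc library, and in 9 every one lay above; among all genes tested these shares were 32.4% and 29.9%.

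**Figure D1:**
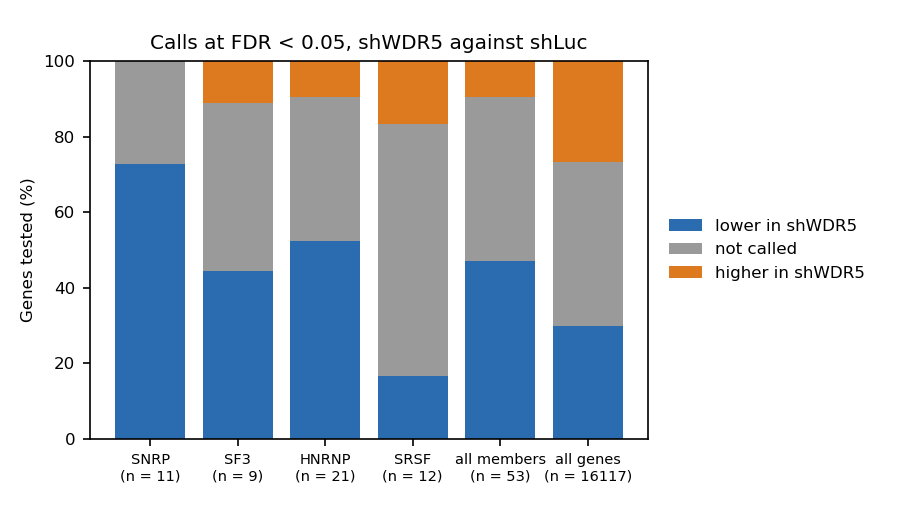
Stacked bars give the percentage of tested genes that were lower, not called or higher in shWDR5 at FDR under 0.05, by family, for all members and for all genes, with the number tested under each bar. SNRP genes had the highest percentage of lower calls, 72.7%, and no higher call, and SRSF genes had the lowest, 16.7%.

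The counts by family are given beside the 29.9% lower and 26.6% higher of all genes. Among SNRP genes 8 of 11 fell (72.7%) and none rose, with a median of -0.30. Among SF3 genes 4 of 9 fell (44.4%) and 1 rose (11.1%), with a median of -0.09. Among the 21 HNRNP genes tested 11 fell (52.4%) and 2 rose (9.52%), with a median of -0.16. Among SRSF genes 2 of 12 fell and 2 rose (16.7% each), with a median of -0.05. The sign of the SRSF median log2 fold change was positive without shLuc replicate 2 (0.0014) or without shWDR5 replicate 1 (0.0336). No test of the difference between families was made. The SNRP count of 8 lower genes was 6 without any one of shLuc replicate 1, shLuc replicate 3, shWDR5 replicate 1 and shWDR5 replicate 3. It was 7 without shWDR5 replicate 2. The HNRNP count of 11 lower genes dropped to 7 without shLuc replicate 3. The single SF3 gene called higher was lost without any one of shLuc replicate 2, shLuc replicate 3, shWDR5 replicate 1 and shWDR5 replicate 3, and the count became 2 without shLuc replicate 1. For SRSF, the lower count was 1 without shWDR5 replicate 2 or 3, and the higher count was 1 without shLuc replicate 1 or 2 or shWDR5 replicate 2 or 3. Of the 30 members called, 21 kept their call and direction in all 15 alternative fits, 6 of which left out 1 library each.

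**Figure D2:**
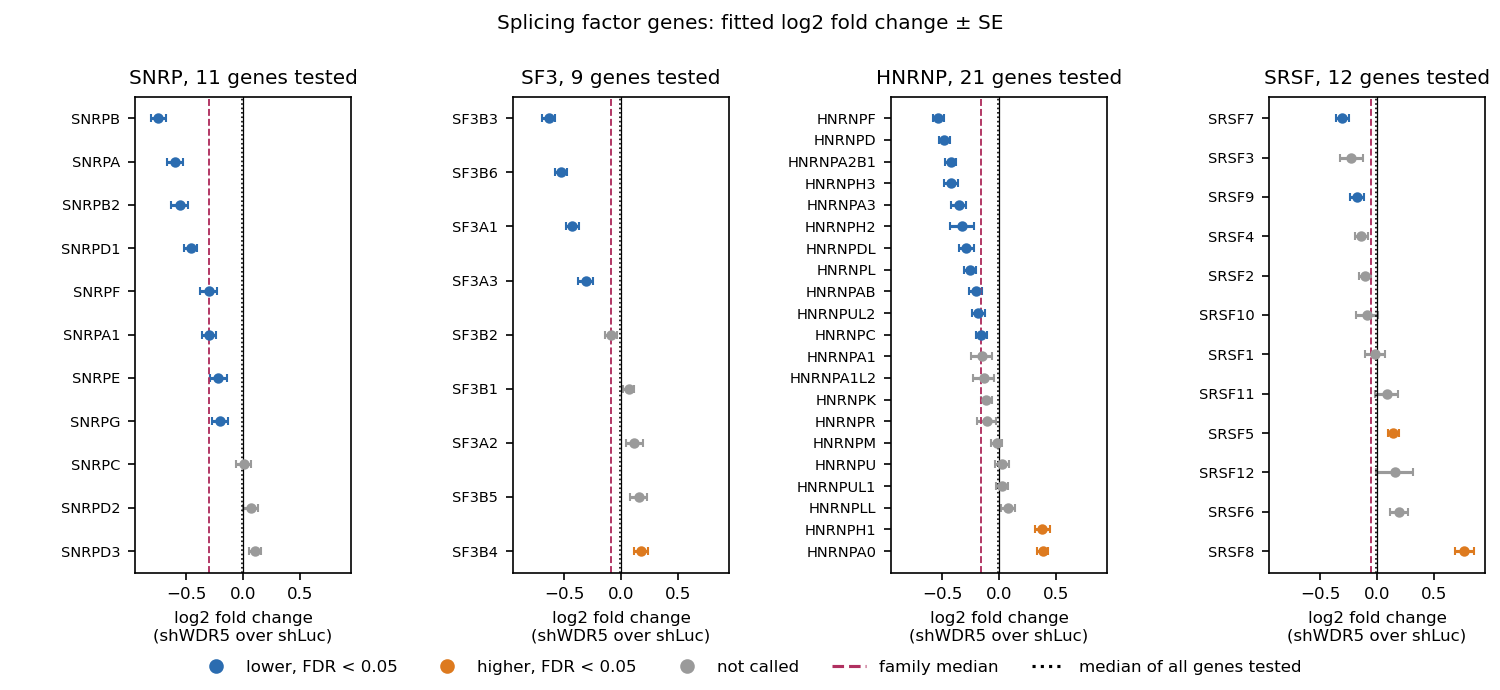
Points give the fitted log2 fold change of each tested gene (shWDR5 over shLuc) and bars its standard error, with 1 panel per family; blue marks genes lower and orange genes higher at FDR under 0.05. The dashed line is the family median and the dotted line the median of all genes. SNRPB lies lowest of all members at -0.74 and SRSF8 highest at 0.77.

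In the snRNP family the largest fall was that of SNRPB (chr20:2442281-2451499 in hg19), which encodes the SmB and SmB' proteins of the Sm ring. It was measured at 189.9, 186.4 and 175.0 CPM in shLuc and at 117.4, 109.0 and 102.8 CPM in shWDR5. The groups were far apart, and the fitted change was -0.74 ± 0.06 (FDR = 5.16e-06). SNRPD1 (chr18:19192230-19210206), another ring protein, was measured at 85.6, 79.7 and 86.8 CPM in shLuc and 59.1, 62.8 and 61.1 CPM in shWDR5, also without overlap (-0.46 ± 0.06, FDR = 7.17e-05). The remaining ring genes were less affected. SNRPF fell by 0.30 on the log2 scale, from 65.0 to 77.2 CPM in shLuc to 54.2 to 58.2 CPM in shWDR5. SNRPE and SNRPG were called at -0.22 and -0.20, but the highest shWDR5 library of each lay above its lowest shLuc library. These calls were kept in only 8 and 6 of 15 alternative fits. The ring genes SNRPD2 and SNRPD3 did not pass the test, with log2 fold changes of 0.07 ± 0.07 and 0.11 ± 0.05. In all, 5 of the 7 ring genes were called lower (71.4%, against 29.9% of all genes tested). In 3 of the 7, every shWDR5 library lay below every shLuc library (42.9%, against 32.4% of all genes tested).

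Per length (RPKM, the CPM divided by the exon length of the gene in kilobases), SNRPD2 had the highest level of the SNRP genes, 206.5 in shLuc and 216.5 in shWDR5, and SNRPG the next, 193.4 and 168.1. SNRPB stood at 159.4 RPKM in shLuc and 95.2 in shWDR5.

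The snRNP-specific genes split in the same way. SNRPA (chr19:41256759-41271297), which encodes a protein of the U1 snRNP that binds a stem loop of its RNA, was measured at 106.0, 103.7 and 89.2 CPM in shLuc and at 67.7, 65.7 and 63.7 CPM in shWDR5. No shWDR5 library reached the lowest shLuc library, and the change was -0.60 ± 0.07 (FDR = 5.07e-05). SNRPC, which encodes another U1 protein, one that helps hold the 5' splice site, was measured at 71.1, 62.6 and 67.8 CPM in shLuc and 69.7, 68.0 and 64.5 CPM in shWDR5. This was the smallest change of the family, 0.00 ± 0.06 on the log2 scale (FDR = 0.955). In the U2 snRNP, SNRPB2 (chr20:16710609-16722417) was measured at 50.6, 55.1 and 58.6 CPM in shLuc and 34.4, 39.4 and 37.7 CPM in shWDR5, a change of -0.56 ± 0.08 (FDR = 0.000118). SNRPA1, which encodes its binding partner, fell by 0.30 on the log2 scale (FDR = 0.00188). Both U2-specific genes were therefore lower in every shWDR5 library than in any shLuc library.

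**Figure D3:**
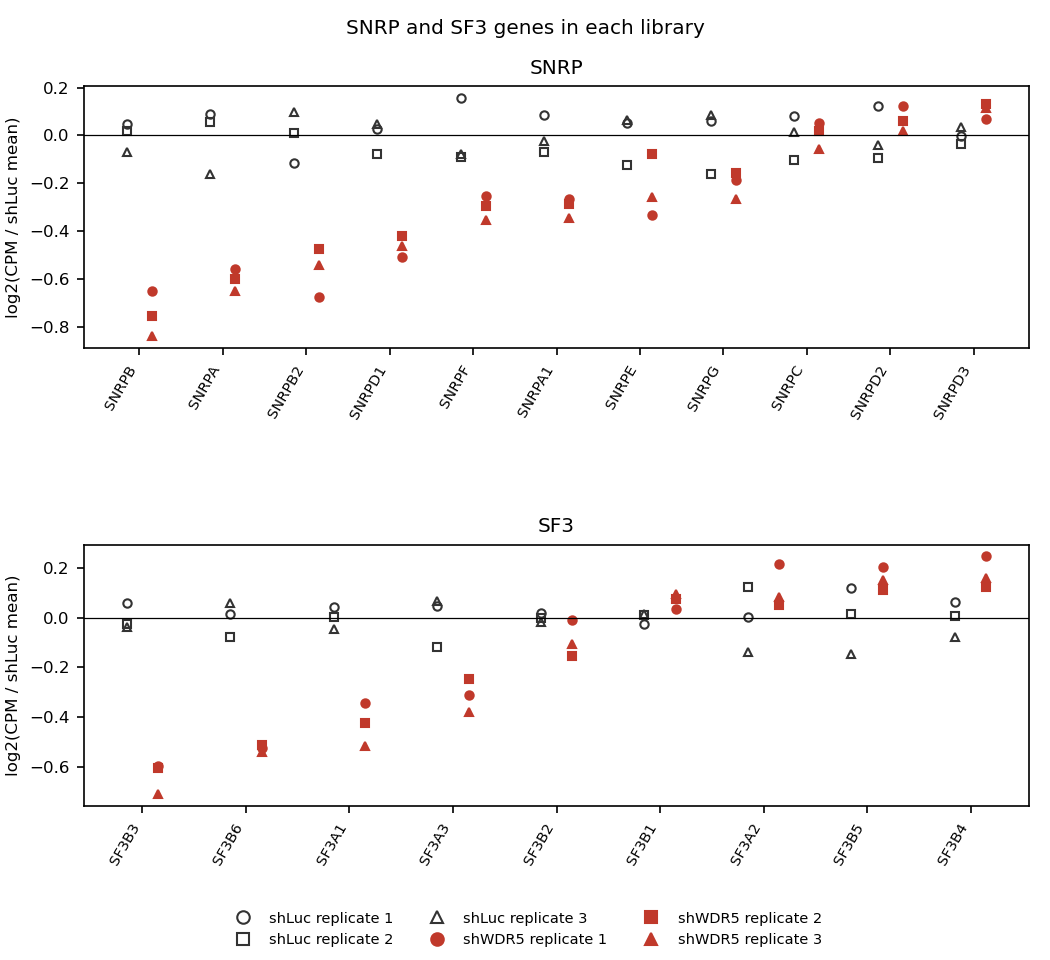
Each symbol is a library, with open black symbols for shLuc, filled red symbols for shWDR5 and the shape marking the replicate number; the y axis is the log2 of CPM over the mean of the shLuc libraries for that gene. For SNRPB, SNRPA, SNRPB2, SNRPD1, SF3B3, SF3B6 and SF3A1 the red symbols lie wholly below the black ones.

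Within SF3B the subunits moved in different directions. SF3B3 (chr16:70557691-70611571), a large scaffold subunit, was measured at 229.9, 216.6 and 215.1 CPM in shLuc and at 145.8, 145.2 and 134.8 CPM in shWDR5, a change of -0.64 ± 0.06 (FDR = 6.43e-06). SF3B6 (chr2:24290454-24299314), which encodes the p14 subunit that contacts the branch point, was measured at 132.0, 124.1 and 136.4 CPM in shLuc and 90.9, 91.8 and 89.9 CPM in shWDR5, a change of -0.53 ± 0.05 (FDR = 2.12e-05). In both genes the shWDR5 libraries lay close together and well below the shLuc libraries. SF3B6 also had the highest level per length of the SF3 genes, 169.7 RPKM in shLuc and 117.9 in shWDR5, and SF3B2 was next at 73.9 and 69.5.

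The other SF3B subunits were not lower by the test. SF3B1, the HEAT-repeat subunit that carries most of the contacts with the branch point, was measured at 359.2, 368.4 and 370.2 CPM in shLuc and 374.5, 385.1 and 390.6 CPM in shWDR5. Its shWDR5 libraries all lay above the shLuc ones, but by only 0.07 ± 0.05 on the log2 scale (FDR = 0.257), the smallest change of the family. SF3B2 stood at -0.09 ± 0.05 (FDR = 0.190) and SF3B5 at 0.15 ± 0.07 (FDR = 0.0961). SF3B4 rose from 103.4, 99.5 and 93.9 CPM to 117.3, 107.8 and 110.5 CPM (0.18 ± 0.06, FDR = 0.0265), the call that was lost when single libraries were left out.

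The SF3A complex is a trimer, and 2 of its 3 genes fell (66.7%, against 29.9% of all genes tested). SF3A1 (chr22:30727977-30752936) was measured at 130.3, 126.7 and 122.8 CPM in shLuc and at 99.7, 94.3 and 88.5 CPM in shWDR5 (-0.43 ± 0.06, FDR = 0.000154). SF3A3 (chr1:38422652-38455761) was measured at 100.3, 89.4 and 101.7 CPM in shLuc and at 78.2, 82.0 and 74.6 CPM in shWDR5 (-0.31 ± 0.07, FDR = 0.00234). Both were lower without overlap. SF3A2 was not called, at 0.12 ± 0.08 (FDR = 0.213).

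The families were also compared by promoter sequence. RefSeq windows of 300 bases (250 before and 50 after the start site, GRCh38.p14) were at hand for 53 of the 58 members, 49 of them among the tested genes. 5 motifs, chosen after the values were seen, were searched on both strands. CCGGAAG, the core of the site bound by ETS factors, was found in 13 of 18 windows of tested SF3 and SNRP genes (72.2%) and in 5 of 31 windows of SRSF and HNRNP genes (16.1%), against 17.2% of the 11381 tested genes with a window and 10.7% of all 27305 windows. It was not limited to genes that fell: 10 of 23 windows of lower members (43.5%), 2 of 5 of higher members and 6 of 21 of uncalled members (28.6%) held it. A match is a description of the sequence only. For some of the lower members, the stretch around the match nearest the start site is shown on the strand of the gene, with the match in capitals (CTTCCGG is the same motif read on the other strand).
SNRPB (chr20:2470810-2470844, minus strand): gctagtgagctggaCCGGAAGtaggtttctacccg
SNRPB2 (chr20:16729990-16730024, plus strand): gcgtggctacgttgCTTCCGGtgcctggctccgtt
SNRPA1 (chr15:101295341-101295375, minus strand): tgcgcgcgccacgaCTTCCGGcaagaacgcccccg
SNRPG (chr2:70293488-70293522, minus strand): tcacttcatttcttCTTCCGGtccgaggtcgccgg
SF3A1 (chr22:30356923-30356957, minus strand): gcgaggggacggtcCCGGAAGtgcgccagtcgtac
SF3B6 (chr2:24076325-24076359, minus strand): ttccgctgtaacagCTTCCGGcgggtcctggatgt

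The E-box CACGTG, the site of MYC and its partners, was in none of the 10 SNRP and none of the 11 SRSF windows of tested genes and in 7 of 20 HNRNP windows (35.0%), against 9.55% of tested genes. The HNRNP genes that held it were HNRNPA3, HNRNPD, HNRNPDL, HNRNPH2, HNRNPH3, HNRNPM and HNRNPUL1. By call, the E-box was in 5 of 23 lower (21.7%), 0 of 5 higher and 3 of 21 uncalled windows (14.3%). CCAAT was in 13 of 20 HNRNP windows (65.0%) and in 36.3% of tested genes. It was in 12 of 23 lower (52.2%), 2 of 5 higher and 6 of 21 uncalled windows (28.6%). No difference between calls was tested. TATAAA was in 6 of the 49 windows (12.2%) and in 6.45% of tested genes, and the palindromic NRF1 core was in none and in 2.06%. The member with the largest fall and the member with the largest rise are shown whole, with all matches to these motifs in capitals. In SNRPB the match is the ETS core, and its window was 58.3% G and C. In SRSF8 it is CCAAT on the other strand, and its window was 36.0% G and C, against a median of 62.3% over the tested members.
SNRPB (chr20:2470740-2471039, minus strand): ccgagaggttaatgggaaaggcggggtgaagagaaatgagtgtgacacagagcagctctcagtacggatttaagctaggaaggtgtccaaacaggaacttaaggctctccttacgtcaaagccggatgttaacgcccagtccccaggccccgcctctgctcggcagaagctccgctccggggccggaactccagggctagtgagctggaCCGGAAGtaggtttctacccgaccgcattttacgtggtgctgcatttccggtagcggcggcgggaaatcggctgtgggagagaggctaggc
SRSF8 (chr11:95066627-95066926, plus strand): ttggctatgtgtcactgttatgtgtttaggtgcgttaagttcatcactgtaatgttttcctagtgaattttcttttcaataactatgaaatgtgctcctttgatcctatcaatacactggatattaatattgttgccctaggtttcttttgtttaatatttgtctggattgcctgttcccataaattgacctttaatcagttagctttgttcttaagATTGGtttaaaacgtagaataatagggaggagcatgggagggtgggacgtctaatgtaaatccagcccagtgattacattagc

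Among the hnRNP genes the F and H subfamily, whose proteins bind runs of G, held calls in both directions. HNRNPF (chr10:43881065-43904696) was measured at 321.8, 327.3 and 327.4 CPM in shLuc and at 228.5, 220.8 and 225.9 CPM in shWDR5. The libraries of each group were nearly alike, and the change of -0.53 ± 0.05 was the largest fall of the family (FDR = 7.05e-06). HNRNPH3 (chr10:70091768-70102953) was measured at 135.5, 145.5 and 142.0 CPM in shLuc and at 97.5, 107.4 and 110.4 CPM in shWDR5 (-0.42 ± 0.06, FDR = 0.000204). HNRNPH1 (chr5:179041179-179050722) moved the other way, from 422.6, 465.7 and 465.6 CPM in shLuc to 545.0, 584.8 and 630.5 CPM in shWDR5 (0.38 ± 0.07, FDR = 0.000677). Every shWDR5 library was above every shLuc library. HNRNPH2 was called lower at -0.32 ± 0.11, at 2.25 to 3.07 CPM, but the call was lost in 6 of 15 alternative fits. Of its exon bases 92.2% are shared with the readthrough row RPL36A-HNRNPH2, which held no read in any library, so its level is uncertain.

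The A and B type genes, which include the best known splicing silencers, showed the same contrast. HNRNPA2B1 (chr7:26229556-26240413) had the highest level per length of all members, 372.4 RPKM in shLuc and 277.2 in shWDR5. It was measured at 1373, 1356 and 1407 CPM in shLuc and at 982.7, 1034 and 1062 CPM in shWDR5, without overlap (-0.43 ± 0.05, FDR = 5.19e-05). HNRNPA3 and HNRNPAB also fell, by 0.35 and 0.20 on the log2 scale. HNRNPA0 (chr5:137087073-137090039), an intronless gene, rose from 170.5, 179.0 and 168.6 CPM to 224.9, 221.7 and 229.0 CPM (0.38 ± 0.05, FDR = 0.000102). HNRNPA1 was not called (-0.15 ± 0.09, FDR = 0.193), and 70.4% of its exon bases are shared with the row HNRNPA1P10, which held no read in any library, so its level is uncertain.

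Both D type genes, HNRNPD (AUF1) and HNRNPDL, fell. HNRNPD (chr4:83274467-83295149) was measured at 304.0, 313.7 and 319.4 CPM in shLuc and 214.5, 227.0 and 230.3 CPM in shWDR5 (-0.48 ± 0.05, FDR = 2.67e-05). HNRNPDL was lower by a smaller amount, -0.29 ± 0.07 (FDR = 0.00436), again with all shWDR5 libraries below all shLuc libraries.

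Most other hnRNP genes moved little. HNRNPK, a poly(C)-binding protein with the second highest level per length of the family (265.9 RPKM in shLuc and 246.0 in shWDR5), was measured at 798.6, 815.5 and 854.4 CPM in shLuc and 750.4, 770.9 and 763.0 CPM in shWDR5. Its groups did not overlap, yet the change of -0.11 ± 0.05 did not pass (FDR = 0.0763). HNRNPL fell by 0.25, HNRNPC by 0.16 and HNRNPUL2 by 0.18 on the log2 scale. HNRNPM had the smallest change of the family, -0.02 ± 0.05 (FDR = 0.737), at 284.7, 271.7 and 274.1 CPM in shLuc and 278.6, 271.4 and 268.3 CPM in shWDR5. HNRNPU and HNRNPUL1 were at 0.03 each, and HNRNPR, HNRNPLL and HNRNPA1L2 were not called either. Calls on HNRNPC, HNRNPUL2 and HNRNPAB were lost in 4, 5 and 4 of 15 alternative fits. HNRNPUL2 shares 46.5% of its exon bases with the readthrough row HNRNPUL2-BSCL2.

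The 5 members that did not pass the filter were all HNRNP rows. HNRNPCL1, HNRNPCL3, HNRNPCL4 and HNRNPUL2-BSCL2 had no read in any library, which allows up to 0.0520 to 0.0785 CPM (3 reads, counting error only), and HNRNPCL2 had 1 read in shLuc replicate 1. HNRNPUL2-BSCL2 and the HNRNPCL3 and HNRNPCL4 rows lie wholly within exons of other rows, so 0 reads there is not a measurement of their transcripts.

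**Figure D4:**
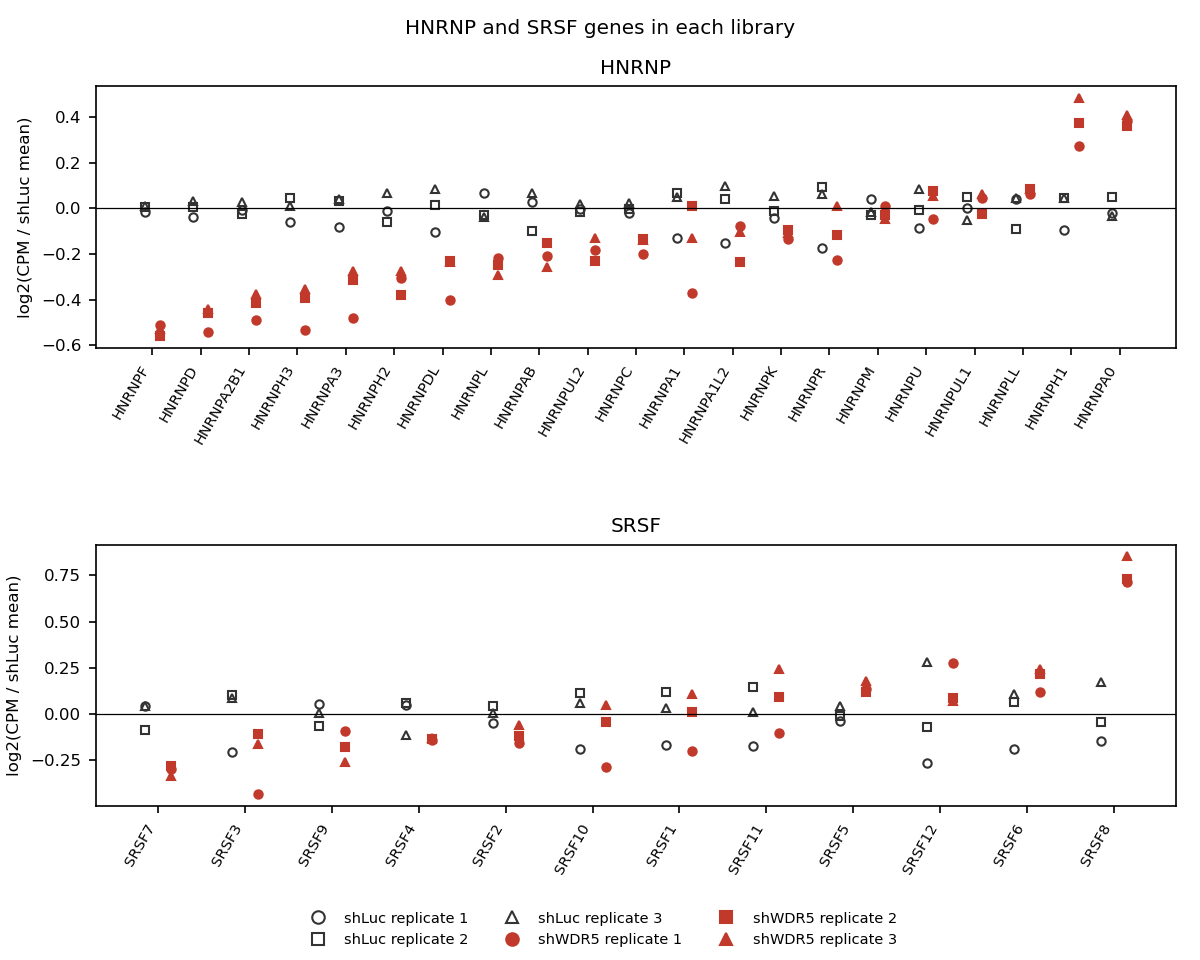
Symbols as in the plot of SNRP and SF3 genes, for the 21 HNRNP and 12 SRSF genes tested. HNRNPA0, HNRNPH1, HNRNPLL, SRSF5, SRSF6, SRSF8 and SRSF12 stand above 0 in all shWDR5 libraries. For SRSF1, SRSF3, SRSF10 and SRSF11, among others, the circles (replicate 1) lie lowest in both groups.

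The SR protein genes had the fewest lower calls and the member with the largest rise. SRSF8 (chr11:94800041-94804387) was measured at 40.3, 43.2 and 50.2 CPM in shLuc and at 73.1, 74.1 and 80.5 CPM in shWDR5. Every shWDR5 library was above the highest shLuc library, and the rise was 0.77 ± 0.08 on the log2 scale (FDR = 2.61e-05). SRSF8 is an intronless paralog of SRSF2, so reads that fit both genes make its count less certain. SRSF2 itself, second in level per length (78.0 RPKM in shLuc and 72.3 in shWDR5), was measured at 223.1, 237.9 and 232.1 CPM in shLuc and 207.2, 213.1 and 222.0 CPM in shWDR5. The groups did not overlap, by a narrow margin, and the change of -0.11 ± 0.05 did not pass (FDR = 0.101).

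SRSF7 (chr2:38970741-38978636), which also acts in mRNA export, was measured at 150.7, 137.5 and 150.5 CPM in shLuc and 119.1, 120.3 and 115.7 CPM in shWDR5, without overlap (-0.30 ± 0.06, FDR = 0.000968). SRSF9 was at 59.98, 55.3 and 57.97 CPM against 54.1, 50.9 and 48.1 CPM (-0.18 ± 0.06, FDR = 0.0354), and 42.6% of its exon bases lie opposite GATC exons, which an unstranded kit cannot separate. SRSF5, the SR gene with the highest level per length (120.5 RPKM in shLuc and 133.0 in shWDR5), rose from 193.8, 197.6 and 205.2 CPM to 218.2, 215.8 and 224.7 CPM (0.14 ± 0.05, FDR = 0.0327). The calls on SRSF9 and SRSF5 were lost in 8 and 7 of 15 alternative fits, while those on SRSF7 and SRSF8 were kept in all.

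SRSF1, the founding SR protein (SF2/ASF), had the smallest change of the family. It was measured at 300.3, 366.0 and 344.9 CPM in shLuc and at 293.6, 340.1 and 363.9 CPM in shWDR5, so the groups overlapped fully (-0.02 ± 0.09, FDR = 0.874). Replicate 1 was the lowest library in both groups, and the same held for 7 of the 12 SRSF genes (58.3%) and 10 of 21 HNRNP genes (47.6%), but for 1 of 9 SF3 and 1 of 11 SNRP genes, against 23.4% of all genes tested. SRSF3, SRSF10 and SRSF11 followed this order, with SRSF3 at 231.4, 287.0 and 283.3 CPM in shLuc and 197.6, 248.2 and 238.9 CPM in shWDR5 (-0.23 ± 0.10, FDR = 0.0761). Without both libraries numbered 1, an alternative added after the data were seen, SRSF3 passed the test as lower and SRSF6 and SF3B5 as higher, and HNRNPH2, HNRNPAB, HNRNPC, SNRPE and SNRPG were no longer called, which left 21 members lower and 7 higher. SRSF12 had the lowest level per length of the tested members, at 1.17 to 1.71 CPM in the libraries, and was not called (0.16 ± 0.16, FDR = 0.452).

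**Figure D5:**
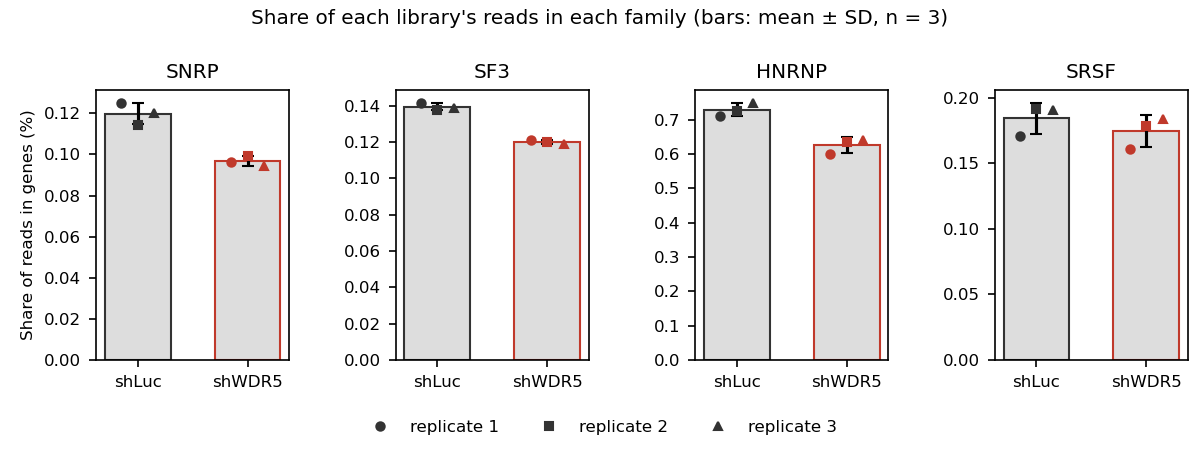
Bars give the mean share of reads in genes that fell in each family, with the SD over 3 libraries per group, and symbols give the libraries. SNRP, SF3 and HNRNP shares do not overlap between groups, and SRSF shares do.

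As a share of all reads in genes, the members together took 1.15% to 1.20% of each shLuc library and 0.978% to 1.04% of each shWDR5 library. These shares were not scaled by TMM. With library totals only, the median log2 fold change of all genes tested was -0.0679, against -0.01 with TMM. With the same totals, the medians of HNRNP (-0.2143), SF3 (-0.1465) and SNRP genes (-0.3564) were lower than that of all genes. The SRSF median was also lower, but nearer to that of all genes. Whether the lower shares are particular to these families was not tested. HNRNP genes took 0.729% ± 0.019 (SD, n = 3) in shLuc and 0.625% ± 0.023 in shWDR5, and SNRP genes 0.120% ± 0.005 and 0.0968% ± 0.0025. SF3 genes took 0.139% ± 0.002 and 0.120% ± 0.001, and these shares did not overlap between groups in any of the 3 families. SRSF genes took 0.184% ± 0.012 and 0.174% ± 0.012, within the spread of the libraries. Because HNRNPA2B1 alone is a large part of the total, it was also left out, and the remaining members still took 1.03% ± 0.02 in shLuc and 0.916% ± 0.029 in shWDR5.

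Other genes of the splicing pathway were called as follows. In 7 lists of spliceosome and splicing regulator genes, 90 genes were tested, of which 41 fell (45.6%) and 10 rose (11.1%), against 29.9% and 26.6% of all genes tested. The list headed PRPF19 complex and splicing helicases had 12 of 17 genes lower and 1 higher. PLRG1 fell from 75.8 ± 1.3 CPM to 32.6 ± 1.7 CPM (SD, n = 3; -1.22 on the log2 scale), CRNKL1 fell by 0.54, and BUD31 rose by 0.21. In the LSM ring, which holds U6, 4 of 7 genes were lower and none higher, led by LSM2 (-0.97) and LSM6 (-0.78). Other snRNP proteins had 10 of 19 lower and 2 higher, with PRPF4 at -0.44 and SNRNP27 at -0.44 against TXNL4A at 0.36 and SNRNP70, the third U1-specific protein, at 0.25.

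The snRNP assembly genes, which load Sm proteins onto the RNA, had 4 of 11 lower and 3 higher. The counts in this paragraph stand beside 29.9% lower and 26.6% higher of all genes tested. Those for snRNP assembly and the 3' splice site were near these shares, and no list was tested as a set. CLNS1A (pICln), the chaperone of Sm proteins, fell from 79.4 ± 4.8 CPM to 38.1 ± 2.3 CPM (-1.06 on the log2 scale) and GEMIN2 fell by 0.83, while GEMIN7 rose by 0.49 and WDR77 by 0.30. SMN1 and SMN2, which are near-identical copies, had no read in any library and did not pass the filter. Most reads of either would fit both, and the multi-mapping setting is not given. The lack of reads is therefore not a measurement of their transcripts. Among SR kinases and SR-like proteins 6 of 15 fell and 2 rose, among them SRRM2 (0.78) and TRA2A (0.70), while TRA2B and CLK4 fell by 0.31 each. At the 3' splice site 2 of 7 genes fell and 2 rose, with DDX46 at -0.61, U2SURP at -0.25, PUF60 at 0.24 and U2AF2 at 0.16. The groups of U2SURP overlapped. Of 14 other hnRNP-type genes 3 fell and none rose, led by PCBP1 (345.0 ± 19.3 CPM to 161.3 ± 4.6 CPM, -1.10) and PTBP3 (-0.46), the latter with overlapping groups. HNRPDL and HNRPLL, symbols of this list that the table does not use, were not counted.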

How the data were processed

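Poly(A) RNA libraries (TruSeq RNA Sample Prep kit, which does not mark strand) of 3 shLuc and 3 shWDR5 MCF10DCIS.com samples were analyzed. Per the submitters' processing notes, the authors aligned reads with TopHat2 2.1.0 to hg19, and they deposited raw counts per gene from featureCounts; its strand and multi-mapping settings are not given in the sources used here. A deposited table of the authors' own edgeR comparison (fold changes and p-values) was not used. The labels do not state whether replicates were separate cultures, so p-values measure only the spread between these samples. The WDR5 hairpins were pooled according to the study.

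Counts were fitted with edgeR 4.0.16 (R 4.3.3; filterByExpr, TMM, quasi-likelihood test with group as the only term) over all genes, with Benjamini-Hochberg adjustment. CPM and RPKM used TMM-scaled library sizes, RPKM the length column. The fit was also run on simulated counts with 200 genes changed, a far smaller share than was called here. That run therefore cannot show how well TMM scaling worked on these data. The SE of a log2 fold change is its size divided by the square root of F. Alternatives were DESeq2 1.42.0, other scalings, filters and tests, a replicate block and each library left out. Members and lists were chosen with earlier results of these data known. Named genes were, per family, up to 4 lower and 4 higher called members with the largest change, the 2 with the highest RPKM, the 1 with the smallest change, and members that failed the filter, plus up to 2 lower and 2 higher genes per spliceosome list. Other members, the promoter motifs and the overlapping rows were chosen after their values were seen. No pair of libraries agreed within sampling noise. The level of 3 reads, given beside rows with no read, covers counting error only. A few items are not reported here.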

Additional observations from a re-analysis of the deposited data

How the results depend on the processing

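Of the 30 members called, 21 kept call and direction in all 15 alternative fits and the same 21 with each library left out, and no called member changed sign. With |log2 fold change| of at least 0.6 as well, 1939 genes were lower and 1751 higher, and the lower and higher counts were 0 and 1 for SRSF, 0 and 0 for HNRNP, 1 and 0 for SF3, and 2 and 0 for SNRP. With library totals only, SRSF had 5 lower and 1 higher and SF3 had 0 higher, the HNRNP median was -0.214 and the SF3 median -0.147. With upper-quartile factors those medians were -0.120 and -0.0518, and SRSF had 1 lower, as with DESeq2, RLE factors and the RPKM filter. SRSF had 1 higher with no filter. Samples sharing a replicate number had correlations of 0.555, 0.0647 and 0.199 in their deviations from the group means, and not every sample matched its own number best, so the numbers were not taken to pair the samples. With the replicate block, SRSF had 5 lower, SF3 2 higher and SNRP 1 higher, and the members had 30 lower and 8 higher. Leaving out 1 library gave ranges of 1 to 2 SRSF lower, 1 to 3 SRSF higher, 7 to 11 HNRNP lower, 0 to 2 SF3 higher, an SRSF median log2 fold change of -0.1129 to 0.0336 (-0.1094 with library totals only), an SF3 median log2 fold change of -0.1305 to -0.0570 and an SNRP median log2 fold change of -0.3424 to -0.2011. SNRP had 6 to 8 lower with 1 library left out, and 6 with RLE or upper-quartile factors. Without both libraries numbered 1, SF3 had 2 higher, SNRP had 6 lower and the SNRP median log2 fold change was -0.2213. The cause of these shifts was not tested. Low counts limit the test mainly for HNRNPH2, HNRNPA1L2 and SRSF12, and the count of HNRNPH2 is also uncertain because of its shared exons.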

Other observations

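HNRNPA1P33, a pseudogene row left out of the members, was at 3.52, 2.99 and 4.31 CPM in shLuc and at 11.5, 11.7 and 11.2 CPM in shWDR5 (1.67 ± 0.11 on the log2 scale, edgeR FDR = 1.29e-06), named after its values were seen. Reads that fit both this row and HNRNPA1 make its count less certain, since the multi-mapping setting is not given. HNRNPU-AS1, the antisense row left out, was at 18.4, 26.6 and 19.7 CPM in shLuc and 13.8, 18.3 and 21.2 CPM in shWDR5 and was not called (-0.28 ± 0.16, edgeR FDR = 0.174). Replicate 1 was its lowest library in both groups, as for HNRNPU.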
